A study of Homo sapiens with 2 samples.

Results

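The E2F transcription factors and the retinoblastoma protein form the switch by which a cell leaves G1 and begins to copy its DNA. The set described here was 10 genes, E2F1 to E2F8, RB1 and TFDP1, found by the gene name that the authors' annotation gives each peak, whatever its class. By role they were 3 activating E2F genes (E2F1, E2F2 and E2F3), 5 repressing E2F genes (E2F4, E2F5, E2F6, E2F7 and E2F8) and 2 cofactors (RB1 and TFDP1). The drug list held 11 peaks under these names among 29283 in all, and the control list held 25 among 49854. In each list 9 of the 10 genes had a peak under their own name, and RB1 was the gene without one. Over the whole lists 14595 genes had a peak under their name in the drug list and 16987 in the control list.

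The peaks came from CUT&Tag in PLC8024, a human liver cancer cell line, with 1 drug library, after 6 hours of exposure at 10 nM, and 1 control library. In CUT&Tag an antibody bound in permeable nuclei guides a transposase, which cuts and tags the DNA nearby. Neither drug nor antibody is named in the labels, so it is not known which protein or mark these peaks follow. With 1 library per group there was no replicate spread, no test between the groups was possible, and no p-value is given.

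As background, E2F1, E2F2 and E2F3 switch on genes for DNA replication and nucleotide supply, and the retinoblastoma protein RB1 holds them silent until cyclin-dependent kinases phosphorylate it. E2F4 and E2F5 work mainly as repressors with the related pocket proteins, E2F6 represses through polycomb complexes without any pocket protein, and E2F7 and E2F8 repress without a dimer partner. TFDP1 encodes DP1, a dimer partner of the kind that E2F1 to E2F6 need to bind DNA. Several E2F genes are themselves E2F targets, so their own start sites are of interest.

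RefSeq start windows, 250 bases before to 50 bases after a start site in GRCh38.p14 (the same build as hg38), were matched for 8 of the 10 symbols, in 9 windows because E2F3 has 2 starts, while E2F5 and E2F8 were not among them. The windows of the 3 activating genes are shown first because each held the pattern searched here as an E2F core. This pattern, in capitals, is TTTNNCGC on either strand, where N is any base, so a match is a loose one.
E2F1 (chr20:33686336-33686635, minus strand): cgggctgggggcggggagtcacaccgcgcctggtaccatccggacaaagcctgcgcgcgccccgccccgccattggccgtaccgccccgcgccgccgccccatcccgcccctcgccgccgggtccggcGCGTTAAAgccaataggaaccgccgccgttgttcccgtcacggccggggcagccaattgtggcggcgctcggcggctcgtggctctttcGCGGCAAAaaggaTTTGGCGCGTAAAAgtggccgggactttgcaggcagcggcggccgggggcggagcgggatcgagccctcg
E2F2 (chr1:23531184-23531483, minus strand): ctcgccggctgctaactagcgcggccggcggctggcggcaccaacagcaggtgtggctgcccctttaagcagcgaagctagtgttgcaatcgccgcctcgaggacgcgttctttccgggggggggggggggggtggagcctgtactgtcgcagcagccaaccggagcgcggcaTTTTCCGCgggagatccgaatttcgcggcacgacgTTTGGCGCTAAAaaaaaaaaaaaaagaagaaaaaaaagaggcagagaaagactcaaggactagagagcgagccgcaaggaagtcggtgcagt
E2F3 upstream start (chr6:20401629-20401928, plus strand): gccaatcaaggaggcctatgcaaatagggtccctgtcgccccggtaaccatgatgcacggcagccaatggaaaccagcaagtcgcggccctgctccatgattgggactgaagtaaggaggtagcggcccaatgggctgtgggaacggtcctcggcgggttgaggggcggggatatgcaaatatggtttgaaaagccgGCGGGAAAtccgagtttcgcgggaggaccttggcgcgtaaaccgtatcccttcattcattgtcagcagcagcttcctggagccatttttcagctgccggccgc
E2F1 held 4 matches, E2F2 held 3 and the upstream start of E2F3 held 1. In E2F1 the matches began 122, 33, 20 and 14 bases upstream of the start, and the last pair shared 2 bases. In E2F2 they began 77, 42 and 38 bases upstream, and the last pair shared 4 bases. In E2F3 the match began 53 bases upstream. Among 22198 start windows of protein-coding genes 8.33% held the core.

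The windows of the repressing genes E2F4, E2F6 and E2F7 are shown for contrast, since none of the 3 held TTTNNCGC on either strand, and so they carry no capitals.
E2F4 (chr16:67191905-67192204, plus strand): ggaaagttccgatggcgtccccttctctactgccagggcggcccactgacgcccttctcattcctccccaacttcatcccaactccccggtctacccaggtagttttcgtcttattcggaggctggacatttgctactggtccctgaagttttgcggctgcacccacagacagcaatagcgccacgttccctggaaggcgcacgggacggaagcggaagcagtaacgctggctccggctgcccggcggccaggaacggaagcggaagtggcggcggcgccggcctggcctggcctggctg
E2F6 (chr2:11466112-11466411, minus strand): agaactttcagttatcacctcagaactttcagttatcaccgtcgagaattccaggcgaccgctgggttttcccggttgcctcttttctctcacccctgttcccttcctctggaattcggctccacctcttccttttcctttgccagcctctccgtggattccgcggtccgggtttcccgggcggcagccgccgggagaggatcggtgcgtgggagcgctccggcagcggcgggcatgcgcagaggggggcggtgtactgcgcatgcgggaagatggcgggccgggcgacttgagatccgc
E2F7 (chr12:77065520-77065819, minus strand): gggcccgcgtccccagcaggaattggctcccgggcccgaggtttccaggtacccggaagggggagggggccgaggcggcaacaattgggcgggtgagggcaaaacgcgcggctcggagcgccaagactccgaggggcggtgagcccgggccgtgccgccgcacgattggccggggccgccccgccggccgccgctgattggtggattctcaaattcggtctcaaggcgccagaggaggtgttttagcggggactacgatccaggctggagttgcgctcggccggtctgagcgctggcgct
TFDP1 held 1 match, which began 120 bases upstream, and the intragenic start of E2F3 held 0. The RB1 entry of the table marks a start site inside the gene (chr13:48476200-48476499), where no list had a peak, and it is not used further. The other motifs searched on both strands were the CCAAT box (CCAAT), the GC box (GGGCGG) and the cell cycle homology region (TTTGAA), found in 34.7%, 56.3% and 12.4% of all windows. None of their matches in the member windows overlapped an E2F core match. E2F7 held 4 CCAAT and 3 GC boxes with no E2F core, E2F1 held 3 CCAAT and 6 GC boxes, and the upstream start of E2F3 held 4 CCAAT boxes, 1 GC box and the only TTTGAA. E2F4 and E2F6 held GC boxes alone, 1 and 2 of them. These matches describe letters in a window and are not bound sites.

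The CpG count of the E2F2 window was near that of windows with a peak, while its GC share was lower. Its window held 29 CpG dinucleotides at 59.7% GC, against a median of 27 in the windows with a drug peak and 27 in those with a control peak. The windows without a peak in either list had a median of 8. Median GC was 66.0% in the windows with a drug peak, 66.0% in those with a control peak and 56.3% in those without a peak. Whether base composition bears on the missing E2F2 start peak was not tested. The windows of E2F1 (46 CpG) and TFDP1 (52 CpG) were the richest among the members, and the upstream start of E2F3 (20 CpG) was the poorest apart from the internal RB1 entry.

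Each peak carries the authors' score, which for MACS2, the peak caller named in the file headers, is by convention 10 times the −log10 of a q-value. The lowest score in each list was 13. Scores depend on read depth, which is unknown for both libraries, so a score describes a peak within its own list and the scores of the lists are given side by side without a fold change. A peak is called overlapped when the other list has a peak that shares 1 bp or more with it. Intervals are exact Clopper-Pearson 95% intervals and cover counting error only.

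All 11 drug peaks under the names of these genes overlapped a control peak, and 11 of the 25 control peaks overlapped a drug peak (44.0%, 24.4 to 65.1). With the control list cut to its 29283 strongest peaks, 11 of 16 control peaks were overlapped (68.8%). The share over all control peaks at that length is not given here, so this value has no background of its own. For control promoter peaks alone the share at that length was 82.6%. Over the whole lists 70.7% of drug peaks and 40.1% of control peaks were overlapped. Promoters and other places differed. The drug list held 8 member peaks in the promoter class, all of them overlapped, where the background over all drug promoter peaks was 97.6%. Of the 9 control promoter peaks 8 were overlapped (88.9%, 51.8 to 99.7), against a background of 74.4%. Outside promoters all 3 drug peaks were overlapped, against 60.0% of all such drug peaks, and 3 of 16 control peaks (18.8%, 4.05 to 45.6), against 31.6% of all such control peaks. The intervals of the control shares hold their backgrounds but are wide. Peaks of 1 gene are not independent, and 6 of the 16 control peaks outside promoters belong to E2F3. The backgrounds are not matched for score either. Neither a difference from the rest nor the lack of one can therefore be read from these shares.

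**Figure D1:**
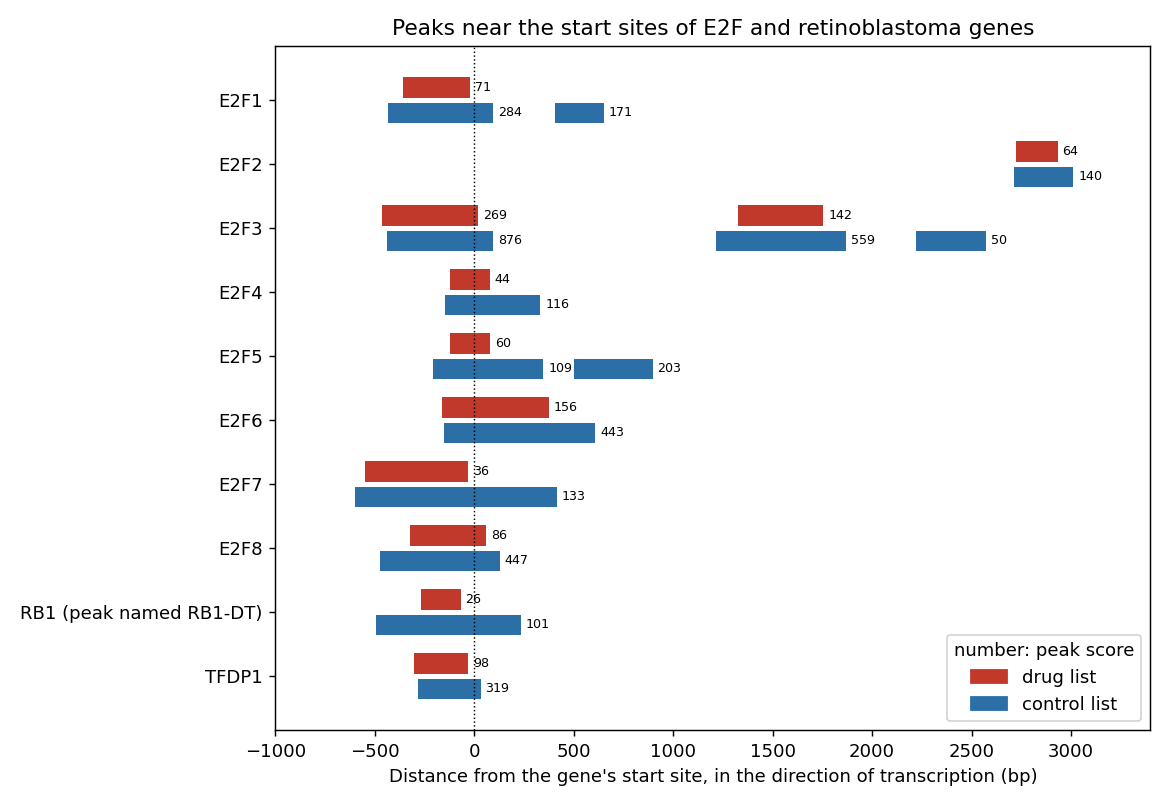
Peaks near the start sites of the 10 genes, drawn as bars from their first to last base, in bp from the start in the direction of transcription, with the drug list above the control list in each row and the peak score beside each bar. Every gene but E2F2 had a peak at its start in each list, and the drug bars of E2F1, E2F7, RB1 and TFDP1 stop short of it. Starts are the ends of the RefSeq gene spans or, for E2F8, the start used in the authors' file. By its RefSeq gene span the start of E2F8 would lie outside its peak in both lists.

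Among the activating genes, E2F3 had the strongest start-site peak of the set in each list, at its upstream start. E2F3 is read from an upstream start and from an intragenic one that yields a shorter protein, and both starts were marked in both lists. At the upstream start the drug peak scored 269 (chr6:20401413-20401896) and the control peak 876 (chr6:20401442-20401973). At the intragenic start the drug peak scored 142 (chr6:20403205-20403633) and the control peak 559 (chr6:20403093-20403747). The upstream start thus scored higher than the intragenic one in each list. The E2F core of the upstream window lay inside the peak in both lists.

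E2F1, the activator best known for driving entry into S phase, had a drug promoter peak of score 71 (chr20:33686407-33686744) and a control promoter peak of score 284 (chr20:33686290-33686819). The drug peak lay wholly inside the control peak and ended 22 bp upstream of the start site, while the control peak ran to 95 bp past it. The E2F core matches 122 and 33 bases upstream lay inside the peaks of both lists, and those 20 and 14 bases upstream lay inside the control peak alone. A further control peak in a CpG island of the first intron (chr20:33685734-33685979, score 171) had no drug partner. Among 776 control intron peaks within 10% of that score, 56.8% were overlapped (53.3 to 60.3).

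E2F2 differed from the rest of the set in position. No peak lay on its start window in either list, although that window held 3 E2F core matches and was CpG rich. Its single peak in each list lay in the gene body, 2724 bp downstream of the start in the drug list (chr1:23528300-23528509, score 64) and 2714 bp downstream in the control list (chr1:23528222-23528519, score 140). The authors' annotation places this peak at the end of a non-coding transcript, LOC101928163 in RefSeq. Of all 22198 start windows 40.4% had a drug peak and 50.1% a control peak, so a start without a peak is common.

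Among the repressing genes E2F6 and E2F8 had the strongest start-site peaks. E2F6 scored 156 in the drug list (chr2:11465787-11466323) and 443 in the control list (chr2:11465553-11466313). The annotation classed this site as a non-coding exon, so E2F6 is absent from the promoter counts although the peak covers its start in both lists. E2F8, an atypical repressor that is most abundant in S phase, scored 86 in the drug list (chr11:19240887-19241268) and 447 in the control list (chr11:19240816-19241420). The scores of these 2 genes differed by 4 in the control list, while the drug score of E2F6 was well above that of E2F8.

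E2F4, E2F5 and E2F7 had weak start-site peaks. E2F4, the main E2F of resting cells, scored 44 in the drug list (chr16:67192034-67192233) and 116 in the control list (chr16:67192009-67192486). The E2F4 drug peak had the smallest width in the list, 200 bp. E2F7, an atypical repressor like E2F8, scored 36 in the drug list (chr12:77065601-77066121) and 133 in the control list (chr12:77065155-77066169). Its control peak was the widest of the set at 1015 bp and ran from 600 bp upstream to 414 bp past the start, whereas the drug peak ended 32 bp upstream. All 4 CCAAT boxes of the E2F7 window lay inside both peaks.

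E2F5 had 2 control promoter peaks, and the stronger was the 1 without a drug partner. At the start site the drug peak scored 60 (chr8:85177033-85177234) and the control peak 109 (chr8:85176944-85177501). The further control peak scored 203 (chr8:85177654-85178050), 500 to 896 bp past the start, in the promoter class through the divergent transcript E2F5-DT. It was the only member promoter peak not overlapped. Among 527 control promoter peaks within 10% of its score 75.9% were overlapped (72.0 to 79.5).

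RB1, the gene of the retinoblastoma protein, had no peak under its own name, but its start site was marked in both lists. The annotation names this peak for RB1-DT, the divergent non-coding transcript at the same promoter. The drug peak scored 26 (chr13:48303483-48303682), with a width of 200 bp, and the control peak scored 101 (chr13:48303258-48303983), with a width of 726 bp. These were the lowest start-site scores of the set in each list. The drug peak lay upstream of the start of the RB1 gene span and ended 69 bp before it, and the control peak ran to 232 bp past it. The annotated span of RB1 is 178 kb, and within it each list had a further weak peak named for LPAR6, a receptor gene inside an RB1 intron. The drug LPAR6 peak scored 15 (chr13:48402280-48402479), the control LPAR6 peak scored 35 (chr13:48413184-48413383), and they lay at different places.

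TFDP1 scored 98 in the drug list (chr13:113584385-113584656) and 319 in the control list (chr13:113584406-113584719). The drug peak began 21 bp further upstream than the control peak and ended 97 bp before the start of the RefSeq window, and the control peak ended 34 bp before it. The RefSeq gene span begins 65 bp upstream of that start, and from there the drug peak ended 32 bp short while the control peak reached 31 bp past. The E2F core match of its window lay inside the peaks of both lists. TFDP1 scored higher than E2F1 in each list. These genes stood next to each other in the order of control scores, but by drug score E2F8 (86) stood between them.

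Taking RB1 by position, 9 of the 10 genes had a peak at their start site in each list. For E2F8 this rests on the start used in the authors' file. By its RefSeq gene span the start of E2F8 lies outside its peak in both lists. Of all protein-coding start windows 40.4% had a drug peak and 50.1% a control peak, a share by window and not by gene. Whether the members exceed it was not tested. The RefSeq start windows with a peak in both lists numbered 7 of 9 for the members and 8881 of 22198 for all protein-coding genes. In the member windows the start base lay under the drug peak in 4 and under the control peak in 6. It lay under the control peak alone in 2, those of E2F1 and E2F7, and under no peak in 1, that of TFDP1. Over all such windows it lay under the drug peak in 88.9%, under the control peak in 96.8% and under the control peak alone in 8.19%. This count was chosen after its values had been seen. Drug peaks were narrower than their control partners at all 10 start-site pairs, with widths from 27.5% of the control width at RB1 to 91.0% at the upstream start of E2F3. Narrower drug peaks were the rule, in 93.2% of 7335 overlapped control promoter peaks with a median of 71.1% of the control width. The part that read depth plays in width was not tested.

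**Figure D2:**
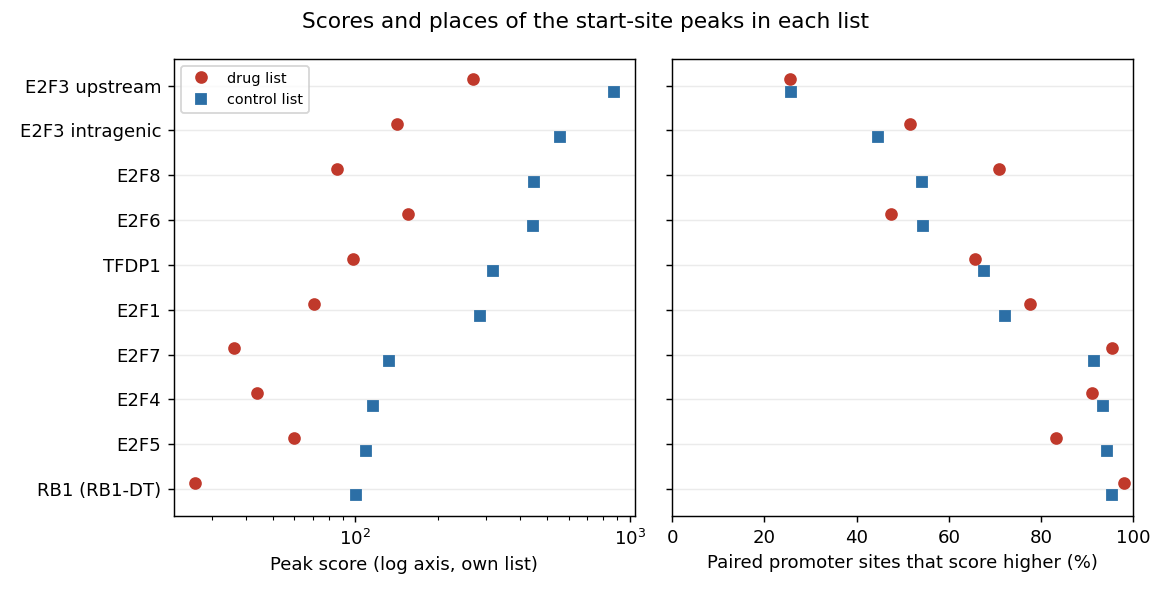
Start-site peaks of the set ordered by control score, with the drug list as circles and the control list as squares. The left panel shows peak scores on a log axis, each within its own list, and the right panel shows the percentage of 7335 paired promoter sites that score higher in the same list. E2F3 leads and RB1 is last in each list, and E2F8 and E2F5 have the widest gaps between their 2 places.

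To place the members in a set that is the same on each side, the 7335 control promoter peaks overlapped by a drug peak were ranked by drug score and by control score. E2F3 at its upstream start had 25.6% of these sites above it by drug score and 25.7% by control score, the same place in effect. TFDP1 likewise had 65.6% above it by drug score and 67.7% by control score. E2F8 stood lower by drug score, with 70.9% of the sites above it, against 54.2% by control score. E2F5 stood higher by drug score, with 83.3% above it, against 94.4% by control score. E2F8 and E2F5 thus moved by the most places, in opposite directions, and both are repressors. E2F6, a start-site peak set against the same promoter sites, had 47.5% above it by drug score and 54.5% by control score. E2F1 had 77.6% and E2F7 95.4% above them by drug score, against 72.2% and 91.5% by control score. The intragenic start of E2F3 had 51.5% above it by drug score and 44.6% by control score, and E2F4 had 91.0% and 93.4%. RB1 was near the bottom in each list, with 98.1% above it by drug score and 95.3% by control score. By drug score E2F5 and E2F6 stood higher than by control score, and E2F7, E2F8, E2F1 and the intragenic start of E2F3 stood lower. E2F4 changed about as little as TFDP1. Without replicates none of these shifts can be set against library noise.

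**Figure D3:**
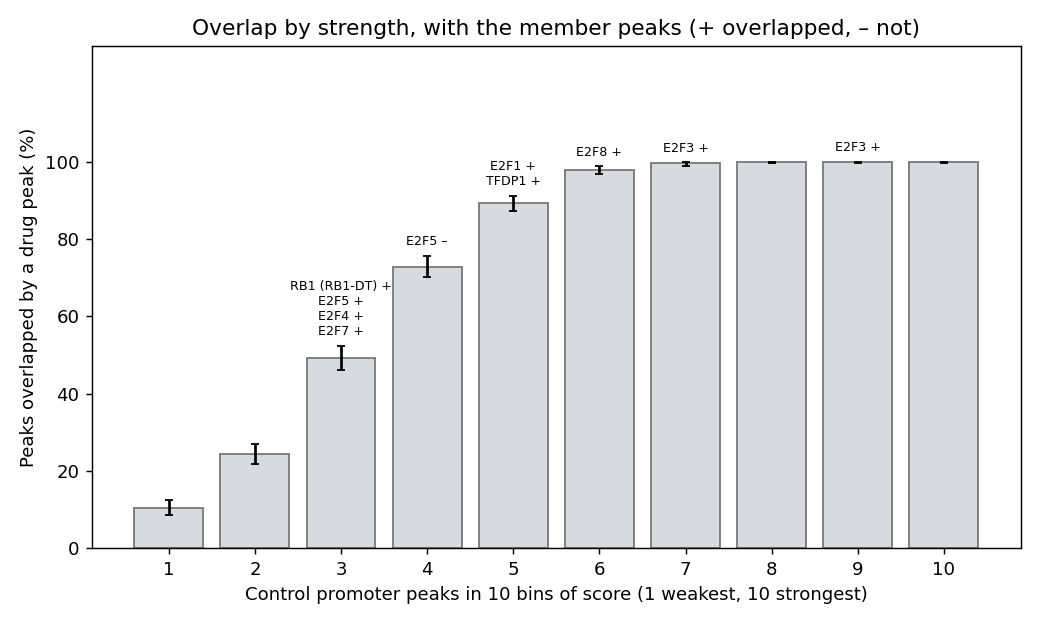
Control promoter peaks in 10 bins of equal size by score, with the percentage overlapped by a drug peak as bars and exact 95% intervals as error bars. Member peaks are written above their bin, with + for overlapped and – for not, and the weak peaks of E2F4, E2F5, E2F7 and RB1 all fall in the third bin, where 49.2% of all peaks were overlapped.

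Overlap followed strength over all promoters, so each member is read against its own bin. The start-site peaks of RB1, E2F5, E2F4 and E2F7 fell in the third of the 10 bins (scores 101 to 157), where 485 of 986 control promoter peaks were overlapped (49.2%, 46.0 to 52.4), and all 4 were overlapped. The E2F5 peak without a partner fell in the fourth bin, where 72.9% were overlapped. E2F1 and TFDP1 fell in the fifth bin at 89.4%, E2F8 in the sixth at 98.0%, and the E2F3 starts in the seventh at 99.6% and the ninth, where all 986 were overlapped. An overlapped peak at E2F3 or E2F8 is therefore what nearly every promoter of that score showed.

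Away from the start sites E2F3 had the most peaks of the set. E2F3 spans 91.8 kb and had 6 further control peaks in its first intron, with centres from 596 to 31311 bp downstream of the nearest start, with scores from 33 to 94. The strongest of these, with a score of 94, lay at chr6:20417947-20418309. None of the 6 had a drug partner, and among 11511 control intron peaks with scores in that range 9.96% were overlapped (9.42 to 10.5). A further 2 control peaks inside E2F3 were named for its neighbour CDKAL1 and scored 33 and 35, again without a drug partner. The drug list had 2 peaks in the E2F3 span, the pair at or near the start sites, against 10 in the control list.

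The other genes had few peaks away from their starts. TFDP1 had control peaks in an intron (score 85) and in the intergenic DNA upstream (scores 59 and 34), E2F6 in an intron (score 66), E2F7 in an exon (score 49) and E2F8 in intergenic DNA (score 67). None of these had a drug partner. Peaks inside a member but named for a neighbour were a drug peak in E2F5 named for RBIS (chr8:85212790-85212989, score 26), which had no control partner, and control peaks in E2F4 named for ELMO3 (score 35) and in TFDP1 named for ATP4B (score 25), which had no drug partner. The unmatched control peaks outside promoters, 13 in all, had scores from 33 to 171. Of the 30163 control peaks of any class in that range, promoters included, 20.5% were overlapped. The 13 were picked for having no drug partner, so that share describes the score range and is no test of them.

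The highest score of the set belonged to an intergenic peak named for E2F7, which lay 13821 bp past the end of that gene (chr12:77007186-77007430). It scored 1730 in the drug list and 3082 in the control list, and its limits were the same to the base in both. It ranked 166 of 29283 in the drug list and 194 of 49854 in the control list. Peaks with exactly shared limits were rare, at 1.30% of the drug list and 0.764% of the control list. Of the 194 control peaks that scored at least as high, all were overlapped, 80 shared their limits with a drug peak and 101 lay in Alu repeats, where reads can be misplaced. The E2F7 peak was annotated to no repeat, which it shared with 7 other intergenic peaks of that strength. Whether its reads were misplaced was not tested, and its link to E2F7 is by distance alone.

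**Figure D4:**
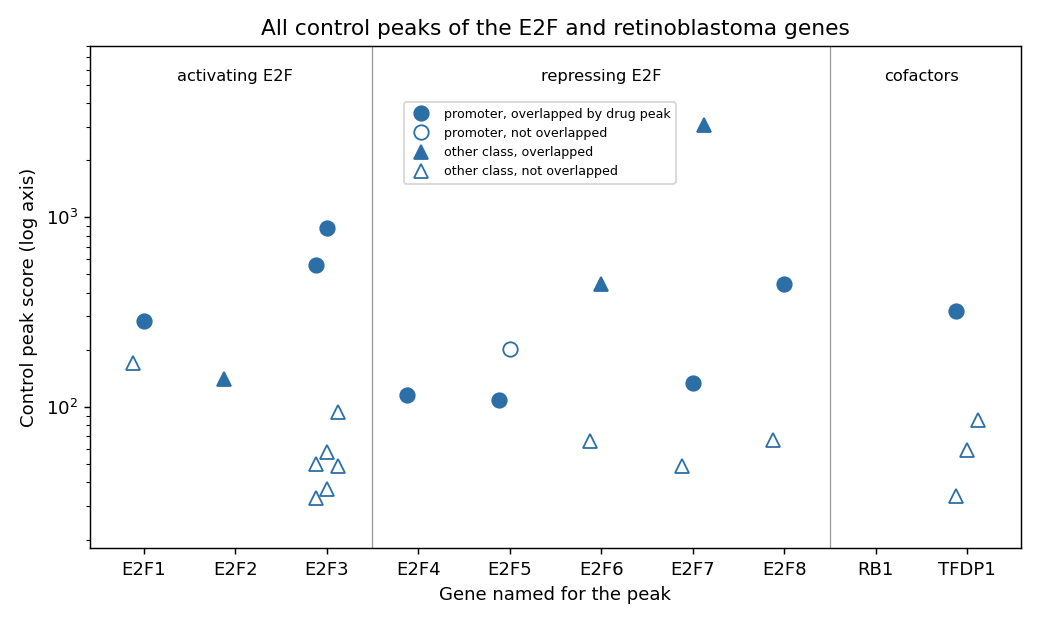
All 25 control peaks named for the genes, by score on a log axis, with circles for the promoter class and triangles for other classes, filled where a drug peak overlapped. Filled symbols lie mainly at higher scores, the open triangles of E2F3 lie between 33 and 94, and RB1 has no peak under its own name.

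Set against each other, the activating genes had 4 drug peaks and 11 control peaks, and the repressing genes had 6 drug peaks and 10 control peaks. Of the control peaks 4 of 11 were overlapped in the activating group (36.4%, 10.9 to 69.2) and 6 of 10 in the repressing group (60.0%, 26.2 to 87.8). These intervals overlap widely, peaks of 1 gene are not independent, and 6 of the 7 activating peaks without a partner belong to the intron of E2F3. In the promoter class 3 of 3 activating peaks and 4 of 5 repressing peaks were overlapped. At the marked starts the scores of the groups overlapped too, since the activating genes spanned 71 to 269 in the drug list and 284 to 876 in the control list, and the repressing genes spanned 36 to 156 in the drug list and 109 to 447 in the control list. Apart from peak calls, the windows differed in their letters, and E2F1, E2F2 and the upstream start of E2F3 held an E2F core. E2F4, E2F6, E2F7 and the intragenic start of E2F3 did not, and E2F5 and E2F8 had no window to search. The core was not particular to the activating genes, since the window of the cofactor TFDP1 held 1. Over all protein-coding start windows 8.33% held the core, so a window without it is the usual case. The motif search was chosen after the peaks had been seen, and the difference was not tested.

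The genes around the switch were described by 4 lists holding 63 genes. In the drug list 45 had a promoter peak and 44 of these were overlapped, and in the control list 46 had one and 44 were overlapped. As a background for these lists and the markers below, 40.4% of all protein-coding start windows had a drug peak and 50.1% a control peak. That share is by window and not by gene. Over all genes with a promoter peak 97.9% of drug genes and 77.7% of control genes were overlapped. These backgrounds do not allow for strength, and overlap rose with score over all control promoter peaks. The median best control promoter score per gene was 393, 458, 329 and 638 in the lists, in the order below. Over all control promoter peaks the median score was 326. The shares of the lists are therefore not read as a trait of their genes. The pocket proteins, dimer partners and DREAM subunits, the repressor complex of resting cells, had 7 of 12 with a promoter peak in each list, all overlapped. Strongest were the kinase DYRK1A, which starts DREAM assembly (drug 643, control 2322), and the DNA-binding subunit LIN54 (drug 328, control 1231). The paralogs of RB1, named here after their values were seen, scored 101 in the drug list and 151 in the control list at RBL1 and 163 in the drug list and 393 in the control list at RBL2.

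Of the G1 cyclins, kinases and inhibitors 11 of 16 had a drug promoter peak, all overlapped, and 13 had a control promoter peak, 12 of them overlapped. CDK4, a kinase that phosphorylates RB1, led with 552 in the drug list and 1558 in the control list. SKP2, which marks the inhibitor p27 for destruction, scored 936 in the control list, where the drug peak scored 212 and was named for LMBRD2. CCNE1, the cyclin E gene and a classic E2F target, had a control peak of score 125 with no drug partner. That score falls in the third bin of control promoter peaks (101 to 157), where 49.2% were overlapped, so a missing partner there is common. Of the E2F6 partners in polycomb complex PRC1.6, 8 of 9 drug promoter genes and 8 of 9 control promoter genes were overlapped, out of 12. By control score the histone deacetylases HDAC1 (drug 348, control 1026) and HDAC2 (drug 141, control 746) came first. WDR5 (control 120), in the same score bin as CCNE1, had no drug partner and CBX3 (drug 41) had no control partner.

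Among S phase targets of E2F, 18 of 23 had a drug promoter peak and 17 a control promoter peak, and all were overlapped. CDC6, which loads the replicative helicase, scored 383 in the drug list and 1683 in the control list. PCNA, the sliding clamp of DNA polymerase, scored 509 in the drug list and 1593 in the control list. The median of the best promoter score per gene was 212 in the drug list and 638 in the control list for this list. That control median falls in the eighth bin of control promoter peaks (618 to 851), where all 986 were overlapped.

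Markers set the label of the cells beside these results. Of 13 liver markers 4 had a drug promoter peak and 8 a control promoter peak, with HNF4A, FOXA2, CEBPA and SERPINA1 in both lists and ALB, AFP, APOA1 and TTR in neither. Of 4 epithelial markers the keratin genes KRT8 and KRT18 had a promoter peak in both lists, CDH1 had no promoter peak in either and EPCAM had no peak of any class. Of 5 blood markers CD68 alone had one (drug 401, control 1304), and PTPRC, CD3E and SPI1 had no peak of any class. Of 6 fibroblast and endothelial markers COL1A2 had a drug promoter peak of score 15, and 0 had a control promoter peak.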

How the data were processed

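Each library came as a single table of peaks with hg38 coordinates, per the submitters' processing notes. The tables were made with HOMER annotatePeaks.pl from a MACS2 narrow peak file with "dedup" in its name, per the file headers, so peaks were called per library. The deposited measurement is the peak score; the distance from the peak centre to the nearest start site in bp is another deposited column. Aligner, tool versions, the treatment of duplicates and any IgG control in peak calling are not given in the sources used here. A single line of the control table reached this work empty and is not analysed here. Other columns of per-sample values numbered 0. IgG and Pol II libraries were not used here.

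Peaks of the 10 genes were taken by gene name and compared by position, at least 1 bp shared, with Python 3.11.15, pandas 2.3.3, numpy 2.4.6 and SciPy 1.17.1. The overlap search was tested on simulated intervals. Named genes were the 10 members and, from each list, up to 2 overlapped and up to 2 unmatched genes with the highest control promoter score. The members and lists were chosen with earlier results of these data known. Alternatives were a score of at least 30, equal list lengths, 50% of the narrower peak shared, centres within 1 kb of a start, merging within 200 bp, matching by name and, added after seeing the data, RefSeq start windows.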

Additional observations from a re-analysis of the deposited data

How the results depend on the processing

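All 7 drug and all 7 control promoter members stayed overlapped with scores of at least 30, equal list lengths, 50% of the narrower peak shared, merged neighbours and matching by name, with 8 of 8 within 1 kb of a start and 6 of 6 on RefSeq start windows. Of 24 alternative counts of members or member peaks 23 lay within 1.5 times the reported one. The exception was matching by name, under which all 25 control member peaks count as shared, since any drug peak of the gene then suffices. At equal list lengths the count of overlapped control member peaks was again 11, but of 16 and not of 25, which moved the share to 68.8%, against 44.0%. The share over all control peaks at that length is not given here, so 68.8% cannot be placed against a background. The share of drug promoter peaks overlapped, 97.6%, became 98.9% with scores of at least 30, 96.2% at equal list lengths, 96.8% within 1 kb of a start, 83.6% by name and 99.1% on RefSeq start windows. The share of control promoter peaks, 74.4%, became 82.6% at equal list lengths, 70.1% within 1 kb, 75.9% with merged neighbours, 72.8% by name and 79.9% on RefSeq start windows. No paired analysis was possible because each group has 1 library. Read depth is unknown, so a missing weak peak in the drug list is not evidence that the signal was absent.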

Other observations

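The naming of a shared site by a neighbouring gene, seen at RB1, also occurred among genes of the G1 list. The drug promoter peak of CCNE2, a cyclin E gene, scored 105 and overlapped a control peak of score 860 that was named for NDUFAF6. The control promoter peak of CDK2, the kinase that cyclin E activates, scored 195, and the drug peak there scored 37 and was named for PMEL. Counts by gene name therefore miss these sites, and counts by position keep them.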
